A study of Bos taurus with 4 samples.

Results

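The class I histone deacetylases HDAC1, HDAC2 and HDAC3 and the forkhead transcription factor FOXO3 were followed in day-7 Holstein (Bos taurus) embryos. The genes were taken from a list of names, and all their probes on a 2-colour array were read. Each gene had 1 probe, so that the 4 genes were represented by 4 of 43794 probes and were 4 of 15214 genes with a name. HDAC1 and HDAC2 passed the filter on dim probes. HDAC3 and FOXO3 did not, and only 2 of the 4 genes were therefore tested.

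Histone deacetylases remove acetyl groups from lysines of histone tails, which is associated with closed chromatin and repressed transcription. The class I enzymes work inside large corepressor complexes, HDAC1 and HDAC2 in the SIN3, NuRD, CoREST and MiDAC complexes and HDAC3 in the NCoR complex. Beta-hydroxybutyrate (BHB) is a ketone body that rises in the blood of cows in negative energy balance. In mouse tissue and human cells it is known to inhibit class I deacetylases, and FOXO3 is one of the genes whose transcript rises there. That inhibition acts on the activity of the enzymes, which transcript levels do not measure.

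Per the labels, cows with a systemic BHB concentration over 0.9 mmol/l formed the high group and cows under 0.9 mmol/l the low group. Cows of both groups had been superovulated with FSH after aspiration of the dominant follicle and inseminated with sexed semen. Morulas and blastocysts were recovered 7 days after the beginning of oestrus and their RNA was amplified before labelling. Each of 4 arrays held 1 RNA of each group, with the high group in Cy5 on arrays 1 and 2 and in Cy3 on arrays 3 and 4. The labels call the arrays biological replicates and leave unsaid how many cows each RNA came from. The p-values therefore cover the spread from array to array, which may in part be technical. The sample titles number arrays 3 and 4 as dye swaps of arrays 1 and 2, while the descriptions and source names number 4 separate replicates. The latter were followed here. If the titles mark the same RNA hybridised again, n is 2 and not 4, and every SD and p over 4 arrays treats repeats as replicates. The bulk RNA came from mixed morulas and blastocysts, so that fewer cells of a type and less RNA per cell cannot be told apart. The comparison asked whether transcripts of these genes differed between embryos of cows with high and low BHB.

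Spot intensities had medians of 213 to 421 scanner units in Cy5 and 290 to 612 in Cy3. A spot counted as above background where it exceeded the median plus 2 scaled MAD of the negative control spots in its channel, of which there were 152 or 153 per array. This held for 33.5% to 48.7% of probes per channel. Tested probes had log2 ratios with an SD of 0.83 on array 1 and of 0.44 to 0.61 on the others. Pearson's r between arrays, across tested probes that are not independent replicates, ran from 0.10 (arrays 1 and 3) to 0.38 (arrays 1 and 4), with 0.18 for arrays 2 and 4. Of the markers that had a probe, 8 of 9 for inner cell mass, 11 of 11 for trophectoderm and 8 of 9 for hypoblast were above background in at least 1 channel. Of cumulus and granulosa markers 3 of 9 were, with STAR in all 8 channels and CYP19A1, HAS2, PTX3, TNFAIP6, FSHR and INHA in none. Of endometrial markers 3 of 6 were, and of leukocyte markers 4 of 8, with PTPRC in all 8 channels (mean log2 ratio 0.42 ± 0.39) and CD79A, LYZ, ITGAM and TYROBP in none.

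By the medians of their lists, hypoblast markers were the least level between the groups and trophectoderm markers the most. Of 10 tested trophectoderm markers 6 were above 0 and 4 below (median 0.03), and 1 was higher at an unadjusted p under 0.05. ELF5, 1 of the 6, passed the filter only through the high group, as seen after the values were known. All 6 tested hypoblast markers had a mean log2 ratio above 0 (median 0.51), 3 of them at an unadjusted p under 0.05 (5.71% of all tested genes were higher at that p). COL4A1, a basement membrane collagen, had 1.14 ± 0.08 and an adjusted p of 0.20 in limma. Summed over the hypoblast markers, normalised intensity ran from 48984 to 76783 in the high group and from 23413 to 83865 in the low group. Of 7 tested inner cell mass markers 5 were below 0 (median -0.27), where 54.4% of all tested genes were. DPPA3 was the 1 marker lower at an unadjusted p under 0.05 (11.6% of all tested genes), and its other probe read 0.27. The sum of the inner cell mass markers ran from 11606 to 21034 in the high and from 12138 to 21066 in the low group. The part of cell makeup in the values below was not tested.

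HDAC1 was detected in both groups on every array, and its ratio had no common direction. In the high BHB channel the spot read 1004, 4999, 10807 and 21058 units on arrays 1 to 4, where the thresholds were 459.3, 298.7, 680.7 and 310.5. In the low BHB channel it read 8775, 9400, 5935 and 14253 units, with thresholds of 338.5, 404.4, 385.5 and 229.2. The reading of the high group on array 1 was the lowest of the 8, at 2.19 times its threshold, while the other 7 lay between 15.4 and 67.8 times theirs. No member's spot was set aside by the scanner software or stood at the scanner's upper limit.

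**Figure D1:**
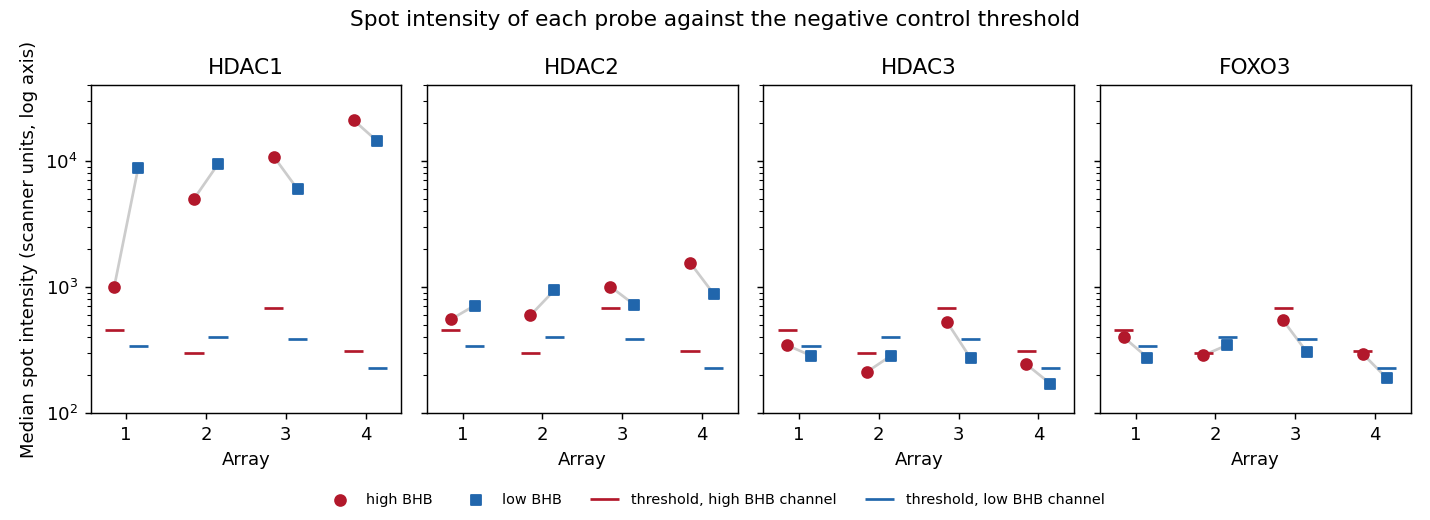
Median spot intensity in scanner units (log axis) for the probes of HDAC1, HDAC2, HDAC3 and FOXO3 on arrays 1 to 4, high BHB as circles and low BHB as squares, with short lines for the negative control threshold of each channel. HDAC1 and HDAC2 lie above the threshold in all 8 channels, and HDAC3 and FOXO3 lie below it in all 8.

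After normalisation the log2 ratios of HDAC1, high over low BHB, were -2.11, -0.34, 0.53 and 0.31 on arrays 1 to 4. The gene was thus lower in the high group on 2 arrays and higher on the other two. Its mean was -0.40 ± 1.20 (SD, n = 4), or 0.756-fold, with an adjusted p of 0.640 in limma over all tested probes. The 95% interval from limma, which moderates the gene's own spread towards that of all probes, ran from -1.27 to 0.47, or from 0.414-fold to 1.38-fold. An exact sign-flip permutation test over the 4 arrays gave a two-sided p of 0.75, where the smallest it can give is 1 in 8. The spread of HDAC1 between arrays was wide, since 98.4% of tested probes had a smaller SD.

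Array 1 set the sign of the mean of HDAC1, which was 0.17 without it. It was -0.42 without array 2, -0.71 without array 3 and -0.64 without array 4. On array 1, 94 of 16575 tested probes had a ratio as low as that of HDAC1 or lower. The spot of HDAC1 lies in the outermost of 170 lines of the array. That line held 81 tested probes, whose log2 ratios had an SD of 0.90 on array 1, against 0.83 for the other tested probes, and HDAC1 was the lowest of them. The next spot on that line, of the unnamed probe EMBV3_35807, had a log2 ratio of -2.10 on array 1 and -0.46, 0.44 and -0.68 on arrays 2 to 4. The adjoining spot on the next line, of the unnamed probe EMBV3_08644, had -0.20 on array 1 and -0.45, -0.68 and -0.25 on the others. One neighbour thus shared the low value on array 1 and the other did not. The part of the spot's position in the value was not tested.

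The sign of HDAC1 also went with the dye. The normalised log2 ratio of Cy5 over Cy3 was -2.11, -0.34, -0.53 and -0.31 on arrays 1 to 4, so that Cy3 was the brighter channel on each of them. Of tested probes 9.56% had 1 sign of Cy5 over Cy3 on all 4 arrays. The mean of HDAC1 was -1.23 on arrays 1 and 2, where the high group was in Cy5, and 0.42 on arrays 3 and 4. In a limma fit with dye as a second coefficient the dye term of HDAC1 was -0.82 on the log2 scale, with an adjusted p of 0.992. In that fit 0 probes had an adjusted p under 0.05 for dye, and 610 an unadjusted p under 0.05 (3.68%). HDAC1 was among the latter. The mean ratio is the same with and without the dye term, as each dye was used on 2 arrays for each group.

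HDAC2 was detected in all 8 channels as well, at intensities nearer to background, and its groups differed little. For the high group the spot read 552, 596, 1008 and 1561 units on arrays 1 to 4, against 712, 942, 725 and 875 units where the low group was read. These readings were 1.20 to 5.03 times the threshold in the high group and 1.88 to 3.82 times in the low group. The log2 ratios were -0.14, -0.19, -0.28 and 0.60. HDAC2 was slightly lower in the high group on arrays 1, 2 and 3 and higher on array 4.

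Over the 4 arrays HDAC2 had a mean log2 ratio of 0.0014 ± 0.41 (SD, n = 4), or 1.00-fold, with an adjusted p of 0.998 in limma. The 95% interval of the ratio ran from -0.50 to 0.50, or from 0.708-fold to 1.42-fold, so that larger differences than these lie outside it. The exact sign-flip permutation test gave a two-sided p of 1.0. The SD of HDAC2 was common for these arrays, with 44.4% of tested probes below it. Without array 4 the mean was -0.20. HDAC2 was below 0 on both arrays of 1 dye order and took both signs in the other, and its dye term was -0.16 with an adjusted p of 0.992 in limma.

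**Figure D2:**
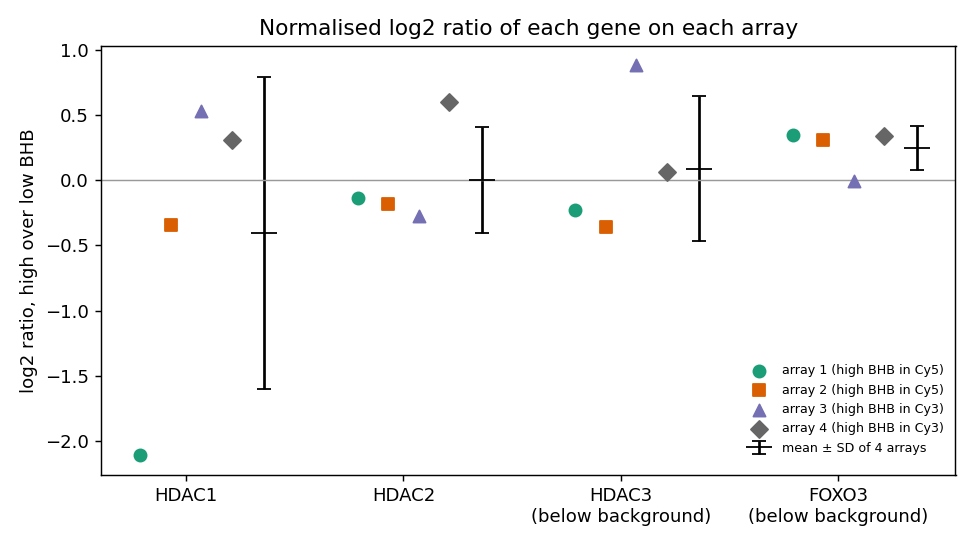
Normalised log2 ratio of high over low BHB for each gene, with a symbol for each of the 4 arrays and the mean ± SD beside them. HDAC1 ranges from -2.11 to 0.53 and HDAC2 from -0.28 to 0.60, and the ratios of HDAC3 and FOXO3 come from spots below background.

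HDAC1 and HDAC2 are close paralogues that often sit in the same complex, and their ratios did not run together. The log2 ratio of HDAC1 minus that of HDAC2 was -1.97, -0.16, 0.81 and -0.30 on arrays 1 to 4. Each array's pair of values shares that array's RNA and normalisation, and the difference was described, not tested. As log2 levels after scaling between arrays, HDAC1 had 12.59 ± 1.39 in the high and 12.99 ± 0.55 in the low group (SD, n = 4). HDAC2 had 9.25 ± 0.51 and 9.25 ± 0.15. The high group thus varied more between arrays than the low group for both genes, with array 1 low for HDAC1 (10.73) and array 4 high for HDAC2. That difference in spread was not tested.

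HDAC3, the catalytic subunit of the NCoR complex, was not above background in any channel. For the low group its spot read 285, 284, 272 and 171 units on arrays 1 to 4. For the high group it read 345, 212 and 243 units on arrays 1, 2 and 4, and 78.2% of the threshold of 680.7 units on array 3. All readings were 71.0% to 78.3% of the threshold in the high group and 70.2% to 84.2% in the low group. Among the negative control spots of the same channel, 0 to 44 read lower than HDAC3. The probe thus read like the dimmer control spots, and the arrays give no level of HDAC3 in either group. Its log2 ratios of -0.23, -0.36, 0.88 and 0.06 (mean 0.09 ± 0.56) come from signals below background, and no fold is given.

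FOXO3, a transcription factor of stress resistance that in mouse keeps primordial follicles dormant, was likewise above background in no channel. The spot read 400, 287, 543 and 294 units in the high BHB channel and 275, 346, 303 and 189 units in the low BHB channel. These were 79.8% to 96.1% of the threshold in the high group and 78.6% to 85.6% in the low group. The number of control spots below FOXO3 was 66, 127, 53 and 137 in the high group and 23, 59, 8 and 30 in the low group. It was larger in the high group on each array. These counts set raw spots below background against the controls of their own dye, before normalisation. On array 3 the normalised log2 ratio was -0.0091.

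The log2 ratios of FOXO3 were 0.34, 0.31, -0.0091 and 0.34 on arrays 1 to 4. The gene read higher in the high group on 3 arrays and level on array 3, with a mean of 0.25 ± 0.17 (SD, n = 4). In a limma fit over all probes with no filter its adjusted p was 0.749, and that of HDAC3 was 0.963. The exact sign-flip permutation test gave a two-sided p of 0.25 for FOXO3. Of the 16019 probes above background in none of the 8 channels, 14.7% had a mean as far from 0 as that of FOXO3, and 59.6% one as far as that of HDAC3. Of the same probes 34.7% had a ratio above 0 on 3 or more arrays, as FOXO3 had. As both groups were below background no fold is given. The mean of FOXO3 was 0.48 when the loess curve was drawn through tested probes alone, and 0.085 with the background model estimated from all spots, those set aside included.

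Over all 16575 tested probes 2 passed an adjusted p of 0.05 in limma (0.0121%), neither of them named, and no member was among them. At an unadjusted p under 0.05 there were 2477 probes (14.9%), 67.0% of them lower in the high group, and 0 of the 2 tested members. Of tested probes 23.4% had 1 direction on all 4 arrays, and again 0 of the 2. Counted by gene, with the brightest probe of each, 5.71% of 7879 tested genes were higher and 11.6% lower at an unadjusted p under 0.05 (17.3% in all), 25.9% had 1 direction on all 4 arrays, and 0 passed after adjustment. The median log2 ratio of all tested genes was -0.04, and 45.6% were above 0. Median centring of each array in place of loess moved the median of all tested probes from -0.03 to -0.17. With it HDAC1 moved to -0.89, HDAC2 to -0.28, HDAC8 to -0.17 and CAT to -0.22. The counts below are read against these shares.

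**Figure D3:**
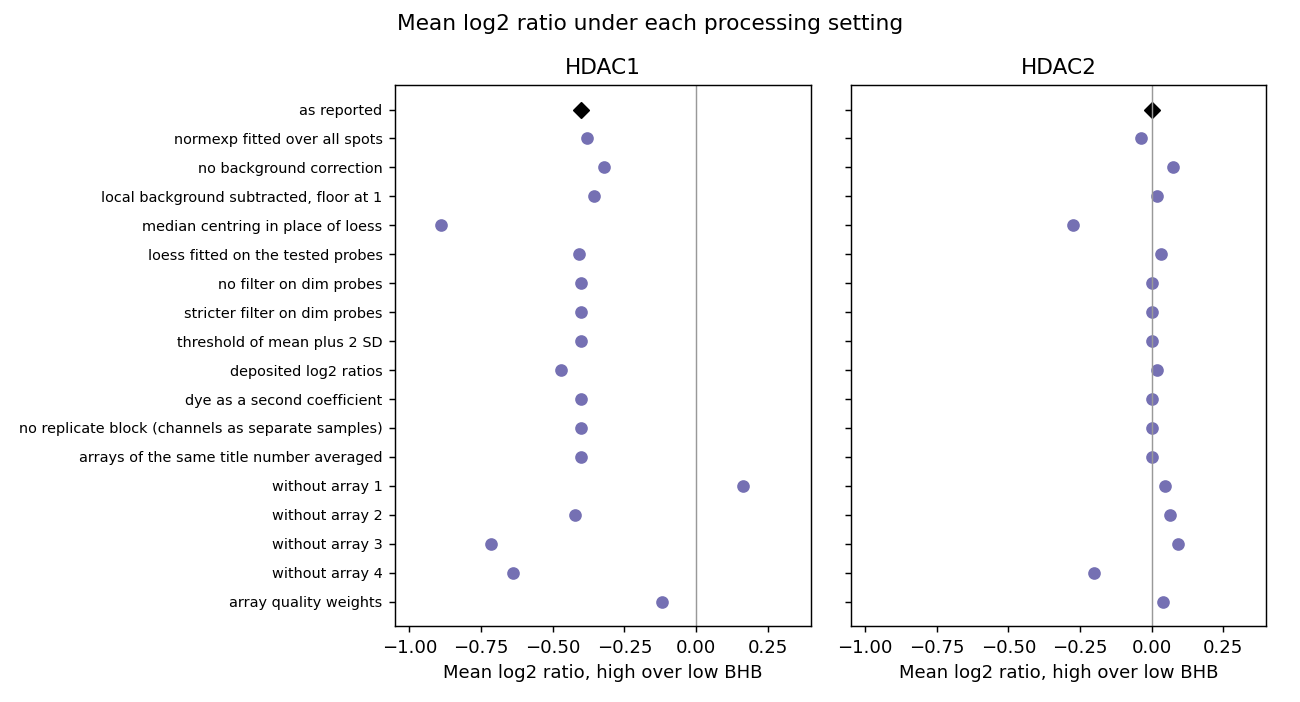
Mean log2 ratio of HDAC1 and HDAC2, high over low BHB, as reported (diamond) and under each other processing setting (circles). HDAC1 lies at -0.40 as reported, at 0.17 without array 1 and at -0.89 with median centring. HDAC2 lies between -0.28 and 0.094.

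The remaining class I enzyme, HDAC8, works outside these complexes. It was above background in all 8 channels, with log2 ratios of 1.01, -0.24, -0.21 and 0.56 and a mean of 0.28 ± 0.61. HDAC8 was higher in the high group on arrays 1 and 4 and lower on arrays 2 and 3, and its mean was 0.04 without array 1. Of the class IIa, IIb and IV enzymes, 4 of 7 had a probe and 3 were tested, with a median of 0.07. The tubulin deacetylase HDAC6 stood at -0.26 ± 0.51, HDAC11 at 0.17 ± 0.39 and HDAC5 at 0.07 ± 0.41. HDAC6 was -0.03 without array 3, HDAC11 -0.01 without array 1 and HDAC5 -0.12 without array 4. None of these deacetylases had an unadjusted p under 0.05.

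All 7 sirtuins, the NAD-dependent deacylases, were tested, and 5 had a mean below 0 (median -0.04), as had 54.4% of all tested genes. Of the 5, SIRT4 (-0.03), named after its values were seen, passed the filter only through the low group. It was above background there on 3 arrays and on 2 in the high group. SIRT6, a chromatin deacetylase, was higher in the high group on each array (0.48, 0.38, 0.91 and 0.27). It was the 1 sirtuin with an unadjusted p under 0.05, and its mean of 0.51 ± 0.28 had an adjusted p of 0.31 in limma. Its other probe read 0.15, and with median centring SIRT6 was 0.14. SIRT3, the mitochondrial deacetylase, stood at 0.23 ± 0.97 and SIRT5, a mitochondrial desuccinylase, at -0.19 ± 0.72. Leaving out 1 array turned both, SIRT3 to -0.10 without array 3 and SIRT5 to 0.07 without array 1.

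Of the SIN3 complex, which holds HDAC1 and HDAC2, 11 of 16 listed genes were tested. There were 5 above 0 and 6 below, 0 higher and 1 lower at an unadjusted p under 0.05, and the median was -0.03. The subunit SINHCAF was lower on each array (-0.33, -1.38, -0.28 and -0.87), with a mean of -0.72 ± 0.52 and an adjusted p of 0.28 in limma. Its other probes read -0.52 and -0.62. SAP130 stood at -0.26 ± 1.15, with array 1 at -1.59 and a mean over the other arrays of 0.18. The histone-binding subunits RBBP4 and RBBP7, shared with NuRD, stood at -0.26 ± 0.53 (-0.11 without array 1) and -0.15 ± 0.17. The scaffold SIN3A was above background in no channel.

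Of the NuRD complex, a remodeller that also holds HDAC1 and HDAC2, 6 of 12 listed genes were tested, 3 above 0 and 3 below (median 0.07). MTA2, which carries the deacetylase in the complex, was higher on each array (1.01, 0.19, 0.28 and 0.67) and had an unadjusted p under 0.05 as the 1 gene of the list. Its mean was 0.54 ± 0.38, with an adjusted p of 0.31 in limma. The motor subunit CHD4 stood at 0.28 ± 0.40, MTA3 at -0.39 ± 1.05 and CDK2AP1 at 0.51 ± 0.98. CDK2AP1 was 0.03 without array 1, and its other probe read -0.27. CHD4 turned to -0.15 with median centring. MTA3 was above background on 1 array in the high group and 4 in the low, so that it passed the filter only through the low group and its place below 0 is in part set by the filter. Without array 3 it was -0.09.

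The CoREST complex had 4 of 10 listed genes tested, 2 above 0 and 2 below (median 0.02), and 0 at an unadjusted p under 0.05. Its scaffold RCOR2 stood at 0.34 ± 0.46, the histone demethylase KDM1A at -0.09 ± 0.36, ZMYM2 at -0.30 ± 0.26 and HMG20B at 0.14 ± 0.42. ZMYM2 was above background on no array in the high group and on 4 in the low group, so that it too passed only through the group where it is higher. Without it, under a threshold of mean plus 2 SD, the median of the other 3 genes was 0.14. Leaving out array 1 moved RCOR2 to 0.19 and turned KDM1A to 0.05, and HMG20B was -0.0042 without array 4. RCOR1 was above background in no channel. Of the MiDAC complex DNTTIP1 stood at -0.04 ± 0.23 and TRERF1 at 0.31 ± 0.15, higher on each array. TRERF1 passed the filter only through the high group, above background there on 3 arrays and on 2 in the low group.

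The partners of HDAC3 were measured although HDAC3 itself was not. Of the NCoR complex 4 of 5 listed genes with a probe were tested, all 4 with a mean above 0 (median 0.19) and 0 at an unadjusted p under 0.05. Of all tested genes 45.6% were above 0. The median of the list stayed above 0 under all 17 other settings, which draw on these same arrays and are no separate support. The corepressor NCOR1 had log2 ratios of -0.64, -0.02, 0.40 and 1.15 (mean 0.22 ± 0.75). NCOR1 was lower on both arrays with the high group in Cy5 and higher on both others. GPS2 stood at 0.32 ± 0.70, CORO2A at 0.16 ± 0.53 and TBL1XR1, which exchanges corepressors for coactivators, at 0.09 ± 0.16. TBL1XR1 passed the filter through the high group alone, so that its place above 0 is in part set by the filter. Without array 4 NCOR1 was -0.09 and GPS2 0.086, and CORO2A was -0.10 without array 3. The median of the list was -0.36 and -0.03 on arrays 1 and 2 and 0.35 and 0.58 on arrays 3 and 4, so that the list too took its sign by dye order. The part of the dye in this was not tested.

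Histone acetyltransferases, the enzymes with the opposite activity, had 8 of 12 listed genes tested, 4 above 0 and 4 below (median 0.06). HAT1, which acetylates newly made histone H4, had nearly the same ratio on each array (-0.48, -0.52, -0.66 and -0.50). It had an unadjusted p under 0.05 as the 1 gene of the list, and its mean of -0.54 ± 0.08 had an adjusted p of 0.29 in limma. With median centring HAT1 was -0.99. KAT2B stood at 0.54 ± 0.74 (0.17 without array 1), KAT7 at -0.46 ± 1.07 (-0.02 without array 1) and the coactivator CREBBP at 0.16 ± 0.45 (0.04 without array 4). Of the 4 below 0, NCOA3, chosen for mention after its values were seen, passed the filter only through the low group. EP300 and KAT2A were not analysed here.

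**Figure D4:**
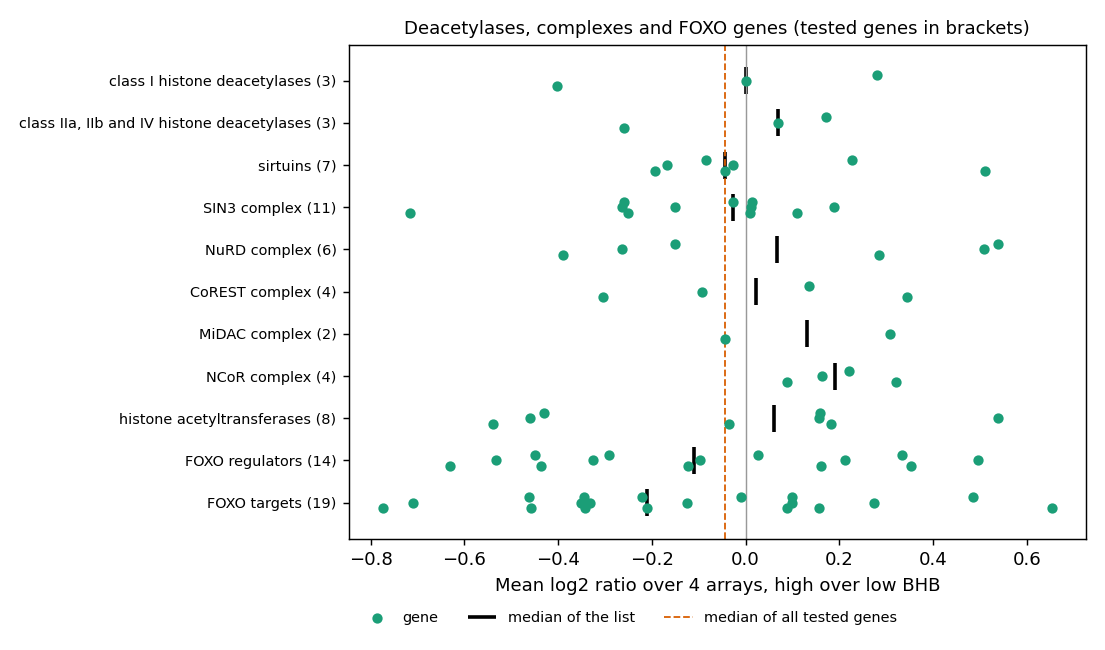
Mean log2 ratio over 4 arrays, high over low BHB, of each tested gene (points) in 11 lists, with the median of each list (bars) and of all tested genes (dashed line at -0.04). The deacetylase, complex and acetyltransferase lists have medians between -0.04 and 0.19, and FOXO targets have -0.21.

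The family of FOXO3 was as dim as FOXO3. Its relatives FOXO1 and FOXO4 were each above background in 1 of 8 channels, in the low group, and none of the 3 family members with a probe was tested. Genes that act on FOXO proteins had 14 of 18 listed members tested, 6 above 0 and 8 below (median -0.11). The kinase AKT1, which sends FOXO proteins out of the nucleus, stood at 0.50 ± 0.61, with array 4 at 1.33. It was 0.22 without array 4, and also 0.22 with normexp fitted over all spots. The ubiquitin ligase subunit SKP2 was lower on each array (-0.15, -0.89, -0.18 and -0.91; mean -0.53 ± 0.42, adjusted p = 0.32 in limma), while its other probe read 0.19. SKP2 was the 1 gene of this list with an unadjusted p under 0.05. The 14-3-3 protein YWHAQ had -0.63 ± 1.40, pulled down by array 1 (-2.61), and 0.03 over the other arrays.

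FOXO targets, known mostly from mouse and human cells, had 19 of 27 listed genes tested. There were 7 above 0 and 12 below, where 54.4% of all tested genes were below 0. Of the 12, FBXO32 (-0.34) and MXI1 (-0.0087) passed the filter only through the low group, as seen after the values were known, so that their side of 0 is in part set by the filter. The median was -0.21, against -0.04 over all tested genes, and 0.088 under the stricter filter on dim probes. Array 1 carried much of it, since the median was -0.45 on array 1 and -0.11, -0.098 and -0.03 on arrays 2 to 4, and -0.085 without array 1. The median of all tested genes was also lowest on array 1, at -0.14, against 0.0056, -0.02 and -0.06 on arrays 2 to 4. At an unadjusted p under 0.05, 2 of 19 were lower and 0 higher, where 11.6% of all tested genes were lower and 5.71% higher. TRIM63, a muscle ubiquitin ligase, had ratios of -0.27, -1.22, -0.41 and -1.20 (mean -0.77 ± 0.50, adjusted p = 0.26 in limma). SOD2, mitochondrial superoxide dismutase, had -1.48, -0.67, -0.13 and -0.56 (mean -0.71 ± 0.56, adjusted p = 0.29). TRIM63 and SOD2 were thus lower in the high group on each array, and neither passed after adjustment over 4 arrays. SOD2 was -0.45 without array 1. When arrays sharing a title number were averaged, leaving 2 replicates, TRIM63 (adjusted p = 0.021 in limma), SOD2 (0.034) and SINHCAF of the SIN3 complex (0.033) passed. In that setting 1531 of 16575 tested probes passed, so that passing was not particular to these genes. With 2 values per probe limma leans mostly on the spread of all probes. These p-values thus measure little of each gene's own spread. PIK3IP1, an inhibitor of PI3 kinase, had 0.65 ± 0.78, with array 1 at 1.80, and 0.27 when array 1 was left out.

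In mouse kidney BHB is known to raise the transcripts of Foxo3 and metallothionein 2 and the proteins catalase and SOD2. Here CAT, which breaks down hydrogen peroxide, had log2 ratios of 0.16, 0.30, 0.81 and -0.17 (mean 0.27 ± 0.41, adjusted p = 0.57 in limma). CAT was higher in the high group on 3 of 4 arrays (0.096 without array 3) and SOD2 lower on 4 of 4. MT2A was above background in 1 of 8 channels and did not pass the filter, as FOXO3 did not. Of this group of 4 only CAT and SOD2 were tested, and neither was higher in the high BHB group past the adjusted threshold. Of all 7879 tested genes 0 passed that threshold.

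The named genes whose 4 ratios lay closest to those of HDAC1 by root mean square difference were TCTN1 (0.229), RNF130 (0.240) and CBLN1 (0.241), where the median over all tested genes was 1.16. Being picked on these same ratios, they shared the low value on array 1, at -2.01, -2.03 and -2.12. Closest to HDAC2 were PNMA1 (0.0837), TOE1 (0.0894) and PHYH (0.108), where the median over all tested genes was 0.642. These, picked in the same way, were highest on array 4, at 0.65, 0.68 and 0.54. The measure rests on 4 arrays that these genes share.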

How the data were processed

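Per the file headers, the deposited scanner files give median intensity for Cy5 and Cy3, spot and local background, before any normalization. The authors' deposited log2 ratios were used as an alternative. For these limma is named in the submitters' processing notes, with no step described. They already ran as high over low BHB (r = 0.967 to 0.992 with the ratios used here) with array medians of 0.00096 to 0.017. The scanner software and the background step of the authors are not given in the sources used here.

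Background was corrected with normexp (offset 50), fitted without the 95 to 114 spots per array that the scanner software had set aside, which also stayed out of the fit. Loess (span 0.3) was run within arrays, giving control spots weight 0, and all ratios were set as high over low BHB. Tested probes (16575) exceeded background in either group on 3 or more of the 4 arrays. limma 3.58.1 in R 4.3.3 (lmFit, eBayes) gave p-values, adjusted by Benjamini-Hochberg over all tested probes. Pairing is by array, since each holds 1 RNA of each group, and levels per group were taken after Aquantile scaling. Steps were tested on simulated data.

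The platform's annotation named 20068 probes by a current symbol, 1644 by a synonym and 78 by neither. These were matched through RefSeq's ARS-UCD2.0 gene table, used for names alone. No sequence was used. The members and lists, the fit of normexp and the threshold were chosen with earlier results of these data known. Besides the members, genes named are a fixed set of partners, the 3 with the largest absolute mean in each list, those with an unadjusted p under 0.05 and the 3 most like HDAC1 and HDAC2. A low-intensity ratio is drawn towards 0 by the offset. The number of arrays limits the precision.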

Additional observations from a re-analysis of the deposited data

Results flagged for a closer look

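On 66 sets of 4 values (the ratios of 46 named genes, the levels of the members in each group and the medians of 12 lists) the gap of 1 array to its nearest neighbour was set against the range (Dixon's test at its 95% value for 4 values), where chance marks about 1 in 20. There were 6 sets past it. Array 4 stood apart for HDAC2 at 0.60, and with it for the median of the class I deacetylases at 0.56. It also stood apart for TOE1 at 0.68 and PHYH at 0.54, which had been named for their likeness to HDAC2. Array 3 stood apart for FOXO3 at -0.0091, a ratio below background, and for CORO2A at 0.95. HDAC1 on array 1 was not among them, since its other arrays were also spread.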

How the results depend on the processing

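HDAC1 kept its sign in 16 of 17 alternatives, and its adjusted p stayed above the threshold in all 17. Without 1 array it ran from -0.71 to 0.17, the latter without array 1, and with array quality weights, an alternative chosen after seeing the data, it was -0.12. The lowest value of HDAC1 was -0.89, with median centring. HDAC2 ran from -0.20 to 0.094 without 1 array and turned below 0 with normexp fitted over all spots (-0.037), with median centring (-0.28) and without array 4 (-0.20). Over the alternatives their adjusted p ran from 0.275 to 0.899 and from 0.622 to 0.999. HDAC3 ran from -0.18 to 0.27, below 0 in 1 of 15 alternatives. FOXO3 stayed above 0 in 15 of 15 and was 0.48 with loess on the tested probes. The other alternatives moved these values by less than 1 SD.

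In limma the 2 calls over all probes became 1 without background correction, with the local background subtracted, with no filter on dim probes and with dye as a coefficient. They became 0 with normexp over all spots (2252 at an unadjusted p under 0.05), with median centring (3234), with no replicate block, that is without the pairing within arrays (989), without array 2 (2257) and without array 4 (1349). They numbered 0 to 2 without 1 array. Averaging arrays of the same title number gave 1531 calls among 16575 tested probes from 2 replicates. Of the 42 other named genes 3, TRIM63, SOD2 and SINHCAF, were among them, a share no larger than that of all tested probes. Median centring moved the median of all tested probes from -0.03 to -0.17 and the share of lower probes among those at an unadjusted p under 0.05 from 67.0% to 97.3%. This share was 55.8% under the stricter filter, 56.7% without array 3 and 57.1% with averaging.

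Of 203 list medians under other settings 9 moved by over 1 SD of the array medians. With median centring SIN3 was at -0.40, NuRD at -0.28, MiDAC at -0.11, histone acetyltransferases at -0.37 and FOXO regulators at -0.35. The stricter filter put SIN3 at -0.20 and FOXO targets at 0.088, with fewer genes tested. Without 1 array FOXO regulators ran from -0.24 to -0.0060 and the class IIa, IIb and IV deacetylases from -0.12 to 0.12. The medians of 8 of 12 lists took both signs, and so did 20 of the 42 other named genes. Of 699 values of these genes under other settings 8 moved by over 1 SD of the gene's ratios. With median centring HAT1 and SKP2 were at -0.99, RBBP7 at -0.62 and DNTTIP1 at -0.51. CHD4, CAT and SIRT6 moved in that setting too, and TRERF1 was 0.10 without background correction. Causes were not tested.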
